A study of Homo sapiens with 38 samples.

Results

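The AP-1 subunits and immediate-early stress genes described here are 10 genes, JUN, JUNB, JUND, FOS, FOSL1, FOSL2, ATF3, EGR1, DUSP1 and IER3, picked by symbol among the 12627 genes of the expression table. The rule used their symbols alone, but the 10 genes and the gene lists used below were chosen with earlier results of these data known. Counts of called genes among them are therefore descriptions. The cells were HCT116, a human colorectal carcinoma line, in which the paralogs VPS4A and VPS4B, ATPases that take ESCRT-III polymers off membranes, were silenced alone or together with siRNA for 72 h. RNA was counted with an amplicon panel, which reads 1 short amplicon per transcript, so levels were compared between conditions for a gene and not between genes.

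There were 9 conditions. Non-transfected cells (NT) and cells with 60 nM of the non-targeting duplex siCTRL#1 were the references, and a second non-targeting duplex, siCTRL#2, was also used, at a dose that the labels do not give. For single silencing, cells received 30 nM of siCTRL#1 with 30 nM of siVPS4A#1, siVPS4A#2, siVPS4B#1 or siVPS4B#2. For combined silencing, they received 30 nM each of siVPS4A#2 and siVPS4B#1 (siVPS4A+B#1) or of siVPS4A#1 and siVPS4B#2 (siVPS4A+B#2). The siCTRL#1 group held 5 libraries and each of the other 8 groups 4, and the replicate numbers 1 to 5 match the batch letters of the labels. All cells came from 1 line, and the study describes its replicates as independent experiments, while the labels say no more than their batch. P-values measure the spread between these libraries.

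The 37 libraries held 5090666 to 11035293 reads over the listed genes, with a median of 7561496. A level resting on 3 reads or fewer, at most 0.589 reads per 1000000 reads (RPM), was taken as being at the floor, which covers counting error only. VPS4A stood at 190 ± 13.96 RPM (SD, n = 5) with siCTRL#1, 19.96 ± 10.6 RPM (SD, n = 4) with siVPS4A+B#1 and 5.03 ± 1.96 RPM (SD, n = 4) with siVPS4A+B#2. VPS4B went from 20.7 ± 3.54 RPM to 0.538 ± 0.331 RPM and 1.28 ± 0.315 RPM, close to the floor. With single duplexes, VPS4A averaged 2.185 RPM (siVPS4A#1) and 7.88 RPM (siVPS4A#2), and VPS4B 0.4325 RPM (siVPS4B#1) and 1.07 RPM (siVPS4B#2). One further library, labelled siVPS4A#1 replicate 2, was left out by the rule that set the gene list. It held 669257 reads, and VPS4B had 1 read in it (1.62 RPM) where the other 4 libraries of its label lay between 21.6 and 32.0 RPM, which goes against the label. Of 8 colorectal epithelial markers 5 were listed, with a summed level of 4331 to 8167 RPM, whereas CEACAM5, CDX1 and VIL1 were not listed. Of 10 markers of blood, endothelial and fibroblast cells 5 were listed, and their summed level was 36.2 to 58.0 RPM with siCTRL#1, 145 to 210 RPM with siVPS4A+B#1 and 115 to 161 RPM with siVPS4A+B#2. CD68, a lysosomal membrane protein used as a macrophage marker, averaged 8.33 RPM with siCTRL#1 and 136 and 57.7 RPM with the pairs, COL1A1 averaged 25.96, 32.8 and 62.6 RPM, and ACTA2 13, 10.3 and 16.2 RPM. PECAM1 and PDGFRB were at most 1.75 RPM in any of the 37 libraries, and PTPRC, CD3E, VWF, COL3A1 and DCN were not listed. The part of these markers in the results below was not tested.

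AP-1 is a dimer of basic leucine zipper proteins, in which a Jun subunit pairs with a Fos, ATF or second Jun subunit and binds the TPA-response element TGACTCA or the cyclic AMP response element (CRE) TGACGTCA. Many of its genes, though not all, belong to the immediate-early response, which mitogens, cytokines and stress induce within minutes through MAP kinases, without new protein synthesis. EGR1, DUSP1 and IER3 are other genes of that response, and DUSP1 is a phosphatase that shuts MAP kinases off again.

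In GRCh37 the genes lie at chr1:59242517-59249720 (JUN), chr19:12902300-12904129 (JUNB), chr19:18390504-18392432 (JUND), chr14:75745529-75748933 (FOS), chr11:65659520-65668044 (FOSL1), chr2:28615315-28640184 (FOSL2), chr1:212738676-212794119 (ATF3), chr5:137801168-137804992 (EGR1), chr5:172195099-172198198 (DUSP1) and chr6:30710976-30712325 (IER3). Start-site windows are shown because some of the genes rose together and others were not called higher. RefSeq windows of the GRCh38.p14 table, from 250 bases before to 50 after a start site, were matched by symbol for 8 of the 10 genes and not for FOSL1 and IER3. The stretches were located by sequence match in GRCh37 and are given in its coordinates. Shown are JUNB, JUND and DUSP1, which rose with both duplex pairs, and then FOS and EGR1, which were not called higher. Capitals mark TGACGTCA, its shorter core TGACG on either strand, TATAAA and, in EGR1, CArG boxes, the binding sequence of serum response factor.
JUNB, 150 to 1 bases upstream, chr19:12902150-12902299, plus strand: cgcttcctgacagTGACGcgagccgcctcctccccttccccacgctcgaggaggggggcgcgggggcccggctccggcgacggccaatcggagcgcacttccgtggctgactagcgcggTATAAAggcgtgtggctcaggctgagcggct
JUND, 220 to 71 bases upstream, chr19:18392503-18392652, minus strand: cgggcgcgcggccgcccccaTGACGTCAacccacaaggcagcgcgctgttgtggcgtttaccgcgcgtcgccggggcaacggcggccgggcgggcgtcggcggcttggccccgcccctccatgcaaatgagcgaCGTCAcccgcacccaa
DUSP1, 180 to 1 bases upstream, chr5:172198199-172198378, minus strand: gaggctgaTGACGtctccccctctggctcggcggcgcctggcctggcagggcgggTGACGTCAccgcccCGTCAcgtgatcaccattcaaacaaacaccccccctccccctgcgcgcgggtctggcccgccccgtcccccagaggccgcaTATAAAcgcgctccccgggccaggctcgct
FOS, 150 to 11 bases upstream, chr14:75745381-75745520, plus strand: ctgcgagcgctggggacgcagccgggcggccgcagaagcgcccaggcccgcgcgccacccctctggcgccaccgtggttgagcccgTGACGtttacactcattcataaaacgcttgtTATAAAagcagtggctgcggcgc
EGR1, 150 to 1 bases upstream, chr5:137801018-137801167, plus strand: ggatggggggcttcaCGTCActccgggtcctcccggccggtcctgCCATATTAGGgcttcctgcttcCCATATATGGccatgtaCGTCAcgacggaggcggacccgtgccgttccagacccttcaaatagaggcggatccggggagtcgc

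The full TGACGTCA lay 200 bases upstream of the JUND start site and 125 bases upstream of the DUSP1 start site, and 1.85% of all 35116 windows held it. The core TGACG, which also counts inside the full element, occurred on either strand in 7 of the 8 genes and in 24.6% of all windows, so genes on both sides of the comparison had it. CArG boxes stood 105 and 83 bases upstream of the EGR1 start site, and 1.29% of all windows held one. TGACTCA was found only in FOSL2 among the 8 genes, 4 bases past its start site (4.95% of all windows), and TGACATCA only in JUN and in 1 of the pair of ATF3 windows (2.61%). Neither ATF3 window was tied to the transcript that the panel lists. TATAAA on either strand was found in JUNB, FOS, ATF3 and DUSP1 (11.5% of all windows), and a κB site in none of the 8 (5.91%). A match describes the sequence and does not show binding.

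With either duplex pair, 6 of the 10 genes were higher than with siCTRL#1, namely JUNB, JUND, FOSL1, FOSL2, ATF3 and DUSP1, and 6.19% of all genes were called higher in both. A gene was called at a fold of at least 1.5 and a Benjamini-Hochberg adjusted p below 0.05 over all genes in limma. With siVPS4A+B#1, 7 genes were called higher, these and IER3 (10.6% of all genes), and the other 3 did not pass the test (11.5% of all genes were called lower). With siVPS4A+B#2, 6 were called higher (12.8% of all genes) and 1, FOS, lower (15.9%). The median difference over the 10 genes was 1.26 and 1.11 on the log2 scale, where the medians over all genes were -0.02 and -0.02. Both pairs were read against the same siCTRL#1 libraries. Libraries of pair and control did not overlap for 7 genes with siVPS4A+B#1 (11.9% of all genes did so in the higher direction) and for 5 with siVPS4A+B#2 (15.1%). These are bulk RNA samples, so fewer cells of a type and less RNA per cell cannot be told apart.

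**Figure D1:**
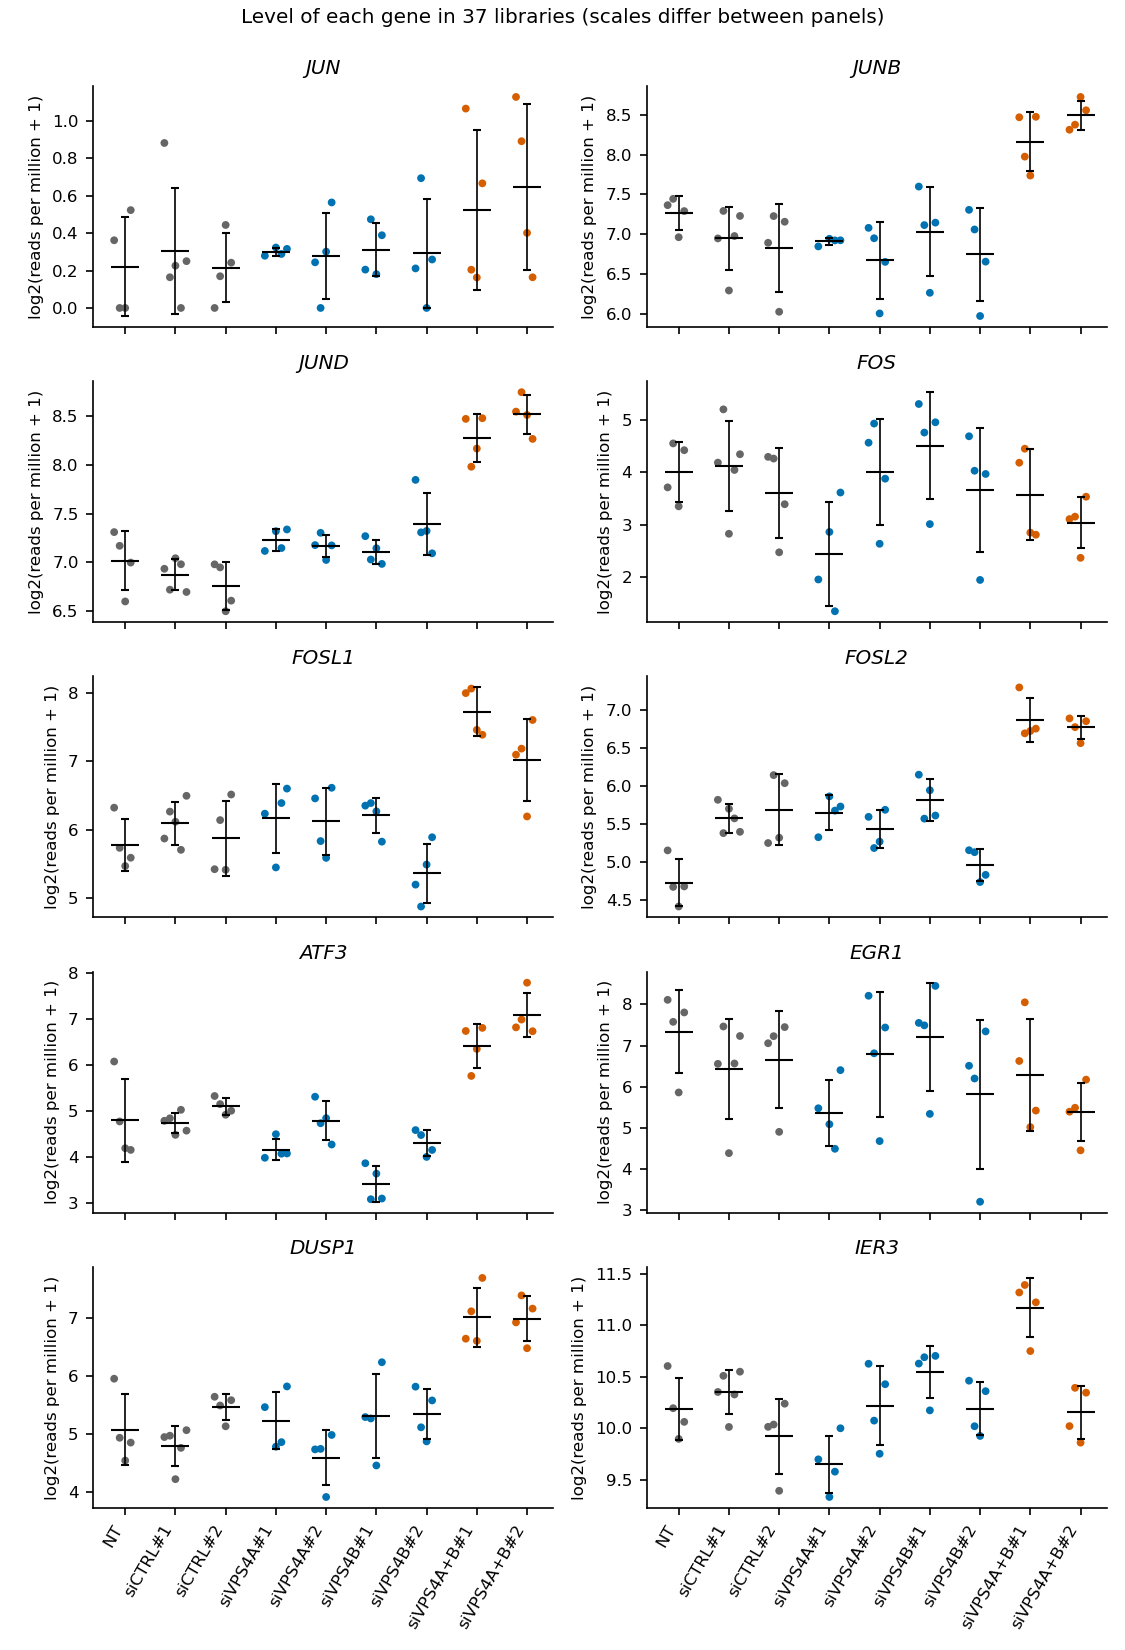
Level of the 10 genes as log2(RPM + 1) in 37 libraries of 9 conditions. Dots are libraries, ordered by replicate number within a condition (grey: controls; blue: single silencing; orange: pairs), with the mean and SD as bars; JUNB, JUND, FOSL2, ATF3 and DUSP1 stood above the siCTRL#1 libraries in each library of both pairs.

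Among the Jun subunits, JUNB, which pairs with Fos proteins and can restrain JUN activity, stood at 122, 156, 77.4, 125 and 149 RPM in the siCTRL#1 libraries. It reached 354, 251, 212 and 355 RPM with siVPS4A+B#1 and 317, 332, 422 and 376 RPM with siVPS4A+B#2. Every library of both pairs lay above every control library. On the log2(RPM + 1) scale, on which all fold changes here were fitted, JUNB rose by 1.25 ± 0.19 (SE; adjusted p = 9.05e-07) with the first pair and by 1.58 ± 0.19 (adjusted p = 4.62e-09) with the second. Compared within each of the 4 batches that held both, the difference lay between 0.68 and 1.52 with the first pair and between 1.08 and 2.43 with the second.

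JUND, the Jun subunit that cells usually carry at a steady level, was at 121, 104, 131, 125 and 103 RPM with siCTRL#1. The libraries of siVPS4A+B#1 held 354, 252, 286 and 356 RPM and those of siVPS4A+B#2 held 373, 428, 364 and 307 RPM, so the lowest pair library lay well above the highest control library. The rise was 2.62-fold (log2 1.39 ± 0.14, adjusted p = 1.67e-10) and 3.10-fold (log2 1.63 ± 0.14, adjusted p = 1.79e-12). JUND had the smallest SD within conditions of the genes above the floor, 0.21 on the log2 scale.

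JUN itself, the founding subunit, was at or near the floor. Its amplicon took 0 to 5 reads in the control libraries, 5, 1, 1, 0 and 2 with siCTRL#1 and 2, 0, 0 and 4 in NT. It took 7, 1, 1 and 4 reads with siVPS4A+B#1 and 7, 4, 2 and 1 with siVPS4A+B#2. With so few reads no fold is given, and JUN was called in no comparison with the 37 libraries. Without replicate 4 it was called higher with siVPS4A+B#2 than in NT (adjusted p = 0.0137), on 7, 4 and 2 reads against 2, 0 and 0.

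The Fos subunits divided. FOSL1 (Fra-1), a Fos protein without the transactivation domain of FOS, rose 3.33-fold with siVPS4A+B#1 (log2 1.74 ± 0.23, adjusted p = 1.04e-07) and 2.05-fold with siVPS4A+B#2 (log2 1.03 ± 0.23, adjusted p = 0.000308). Its control libraries held 57.6, 75.9, 68.4, 51.3 and 89.2 RPM. The first pair gave 254, 266, 175 and 166 RPM, all above the controls, and the second 136, 144, 72.2 and 193 RPM, of which replicate 3 lay inside the control range. Within the batch of that library the difference was 0.08 on the log2 scale, the smallest of 4 batches, whose largest was 1.89.

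FOSL2 (Fra-2) was at 55.4, 40.7, 51.0, 46.6 and 41.2 RPM with siCTRL#1. It reached 156, 102, 104 and 107 RPM with the first pair and 117, 108, 93.4 and 114 RPM with the second. No library of either pair came near the control range. The rise was 2.43-fold (log2 1.28 ± 0.17, adjusted p = 1.72e-07) and 2.27-fold (log2 1.18 ± 0.17, adjusted p = 4.67e-07). Against NT, where FOSL2 held only 20.4 to 34.6 RPM, it was 4.38-fold and 4.09-fold higher (adjusted p = 1.05e-12 and 3.18e-12).

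FOS, the subunit whose transcript peaks and decays fastest after a stimulus, was not called higher with either pair. It stood at 17.2, 35.7, 6.10, 15.5 and 19.3 RPM with siCTRL#1, at 17.1, 20.8, 6.20 and 6.01 RPM with siVPS4A+B#1 and at 7.61, 7.90, 4.16 and 10.6 RPM with siVPS4A+B#2. The groups overlapped in both cases. The difference was -0.39 ± 0.35 on the log2 scale (95% interval -1.09 to 0.32, adjusted p = 0.406) with the first pair. With the second, FOS fell by 0.92 ± 0.35 (adjusted p = 0.0290), a call that was lost in DESeq2 (adjusted p = 0.0634), without replicate 1 (0.0634), without replicate 2 (0.286) and without the batch term (0.0859).

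ATF3, a stress-induced subunit of the ATF family that often represses, had, with DUSP1, the largest difference of the 10 genes with siVPS4A+B#2. Its siCTRL#1 libraries held 26.6, 27.7, 21.3, 31.6 and 22.8 RPM. The first pair gave 106, 53.2, 80.4 and 111 RPM and the second 112, 126, 220 and 105 RPM, all above the siCTRL#1 libraries. ATF3 rose 3.12-fold (log2 1.64 ± 0.25, adjusted p = 1.15e-06) and 4.96-fold (log2 2.31 ± 0.25, adjusted p = 5.32e-10). In NT cells, replicate 1 alone held 66.4 RPM and the other 3 libraries 16.8 to 26.3 RPM, so that 1 library of the first pair overlapped with NT.

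EGR1, a zinc finger transcription factor driven by serum response factor and ERK signalling, was not called against siCTRL#1 with either pair. It ranged from 19.98 to 175 RPM with siCTRL#1 (93.1, 175, 19.98, 93.7 and 149), from 31.5 to 264 RPM with siVPS4A+B#1 (97.8, 264, 31.5 and 41.9) and from 21.0 to 71.2 RPM with siVPS4A+B#2 (41.1, 43.98, 21.0 and 71.2). The ranges overlapped. The difference was 0.06 ± 0.41 with the first pair (95% interval -0.77 to 0.88, adjusted p = 0.932) and -0.84 ± 0.41 with the second (adjusted p = 0.0870). The latter was called without replicate 3 (log2 -1.04, adjusted p = 0.0430) or 4 (-1.06, adjusted p = 0.0168). Against NT (275, 190, 57.2 and 222 RPM) EGR1 was called lower with both pairs, by a log2 of -1.06 ± 0.42 (adjusted p = 0.0391) and -1.96 ± 0.42 (adjusted p = 0.000182). The first of these was lost in DESeq2 (adjusted p = 0.208), edgeR (0.102), without the batch term (0.277), without replicate 1 (0.169) and without replicate 4 (0.202). EGR1 with siCTRL#1 itself differed from NT by -1.11 ± 0.41 (adjusted p = 0.0522), and by -1.42 without replicate 2 (adjusted p = 0.0300).

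DUSP1, which dephosphorylates p38, JNK and ERK, had the largest difference of the 10 genes with siVPS4A+B#1. It stood at 29.8, 30.3, 17.6, 26.1 and 32.5 RPM with siCTRL#1. The libraries of the first pair held 99.0, 138, 96.4 and 206 RPM and those of the second 121, 167, 88.2 and 142 RPM. Both groups lay above all control libraries. The rise was 5.04-fold (log2 2.33 ± 0.21, adjusted p = 7.24e-12) and 4.95-fold (log2 2.31 ± 0.21, adjusted p = 6.07e-12), and with either pair it lay between 1.70 and 2.93 on the log2 scale in every batch.

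IER3, an early response gene that modulates ERK and NF-κB signalling and cell survival, was raised by the first pair. Its levels were 1305, 1455, 1031, 1283 and 1496 RPM with siCTRL#1 and 2550, 2682, 1719 and 2386 RPM with siVPS4A+B#1, without overlap (log2 0.89 ± 0.13, adjusted p = 7.30e-07). The siVPS4A+B#2 libraries held 1037, 1342, 928 and 1299 RPM and overlapped with the controls (log2 -0.13 ± 0.13, 95% interval -0.39 to 0.14, adjusted p = 0.446).

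**Figure D2:**
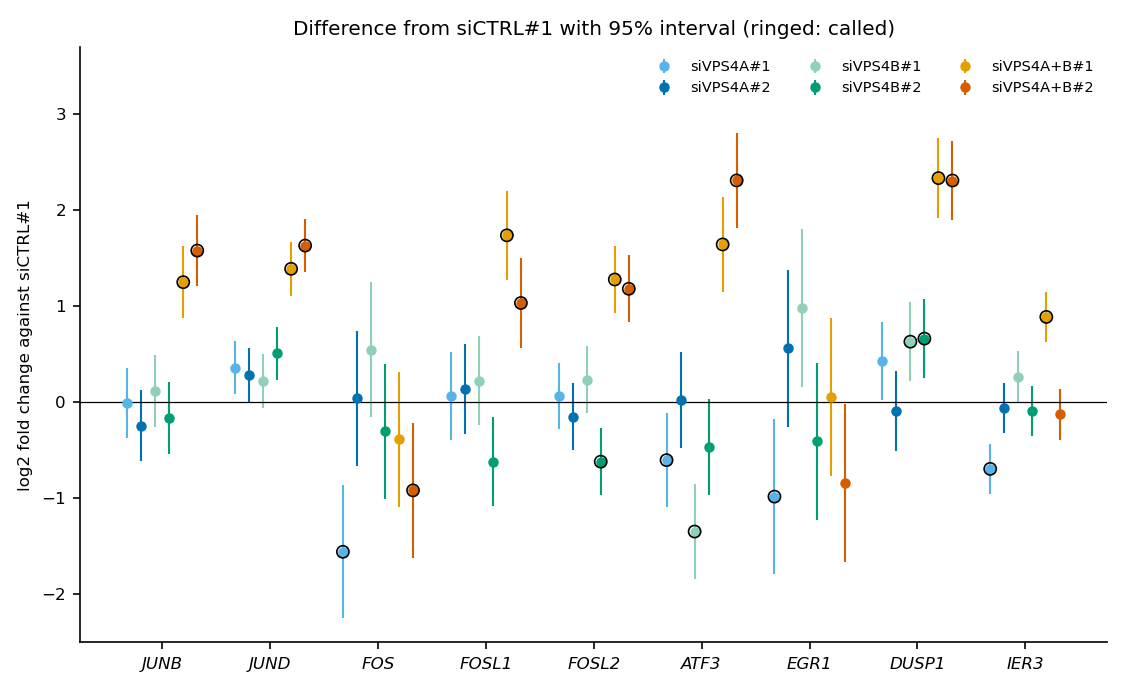
Log2 fold change against siCTRL#1 with its 95% interval for 9 genes (JUN, at the floor, is left out) and 6 silencing conditions, and rings mark differences called at a fold of at least 1.5 and adjusted p below 0.05. The 6 genes raised by both pairs lie at 1.03 or more with each pair, and FOS and EGR1 lie at 0.06 or less.

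Set against each other, the pairs differed in 3 genes. IER3 was lower with siVPS4A+B#2 than with siVPS4A+B#1 by a log2 of -1.01 ± 0.13 (adjusted p = 1.35e-07), in all 4 libraries and all 4 batches (9.92% of all genes were called lower, and 10.7% lay apart in that direction). FOSL1 was lower by -0.70 ± 0.24 (adjusted p = 0.0212) and ATF3 higher by 0.67 ± 0.25 (adjusted p = 0.0421; 7.53% of all genes were called higher), both with overlapping libraries. Without replicate 2 or 3 neither of these passed (adjusted p = 0.0867 and 0.157 for FOSL1, and 0.270 and 0.302 for ATF3), and without the batch term the adjusted p was 0.0523 and 0.0734. FOSL1 was also lost without replicate 1 (0.0885) and ATF3 in DESeq2 (0.0691). For DUSP1, the interval of the difference ran from -0.45 to 0.40, and for FOSL2 from -0.46 to 0.26. The pairs used different duplexes for each paralog, so the duplex and what it targets cannot be told apart in these differences. VPS4A was also 3.29-fold lower with siVPS4A+B#2 than with siVPS4A+B#1 (adjusted p = 1.58e-07), and its part in them was not tested.

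With NT as the reference, 7 genes were called higher with siVPS4A+B#1 and 6 with siVPS4A+B#2 (12.6% and 13.2% of all genes). EGR1 with either pair and FOS with the second were called lower (13.3% and 15.7% of all genes), FOS by -0.97 ± 0.36 (adjusted p = 0.0252), which was lost in DESeq2 (0.0590), without the batch term (0.149) and without replicate 2 (0.125). The genes called higher were those called against siCTRL#1 in each case. The 2 references differed in 1 of the 10 genes, FOSL2, which was 1.81-fold higher with siCTRL#1 than in NT (log2 0.85 ± 0.17, adjusted p = 0.000532) in all 5 libraries (4.84% of all genes were called higher and 8.19% lay apart).

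Single silencing gave a different picture for most of the genes. With siVPS4A#1, 4 genes were called lower than with siCTRL#1 (12.5% of all genes), and the other 6 were not called (9.57% of all genes were called higher). FOS fell to 2.88, 6.27, 1.55 and 11.2 RPM, by 1.56 ± 0.34 on the log2 scale (adjusted p = 0.000336), with overlap of the control range in 2 libraries. IER3 fell to 829, 643, 763 and 1022 RPM, below every control library as were 14.9% of all genes (log2 -0.70 ± 0.13, adjusted p = 2.80e-05). The calls for ATF3 (14.8, 21.6, 15.8 and 15.9 RPM, log2 -0.60 ± 0.24, adjusted p = 0.0459) and EGR1 (43.6, 33.1, 21.6 and 83.7 RPM, log2 -0.98 ± 0.40, adjusted p = 0.0488) lay just past the threshold. Each of these was lost in DESeq2 (adjusted p = 0.0939 and 0.268), without the batch term (0.0832 and 0.252), with other scalings and without replicates 1, 2, 4 or 5 (0.0888 to 0.126 for ATF3 and 0.0949 to 0.222 for EGR1). JUND stood above all siCTRL#1 libraries in its 4 libraries (138, 159, 141 and 161 RPM), as did 12.8% of all genes, and its 1.28-fold difference (adjusted p = 0.0335) lay under the fold threshold. With the library labelled siVPS4A#1 replicate 2 kept, which goes against its label, the calls of siVPS4A#1 changed. ATF3 (adjusted p = 0.856), EGR1 (0.0510) and IER3 (log2 -0.43, under the fold threshold) were no longer called. JUND (log2 0.62, adjusted p = 0.00495) and DUSP1 (log2 0.99, adjusted p = 0.0146) were called higher.

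The other duplex against VPS4A, siVPS4A#2, moved none of the 10 genes past the threshold in limma, edgeR or DESeq2 (0.0871% of all genes were called in limma), and 1 gene, JUND, had an unadjusted p below 0.05. Its intervals for DUSP1 and ATF3 ran from -0.50 to 0.32 and from -0.48 to 0.52. With siVPS4B#1, ATF3 was at 13.6, 7.48, 11.5 and 7.57 RPM, below all control libraries, and fell by 1.35 ± 0.25 (adjusted p = 6.82e-05; 7.33% of all genes were called lower and 9.34% lay apart). ATF3 thus fell where VPS4B alone was silenced with this duplex and rose where the same duplex was combined with siVPS4A#2. DUSP1 rose 1.55-fold with siVPS4B#1 (adjusted p = 0.0217; 5.61% of all genes) and 1.58-fold with siVPS4B#2 (adjusted p = 0.0250; 3.01%), each time with 1 library inside the control range. The first of these was lost without replicate 4 (log2 0.32, adjusted p = 0.273) and the second without replicate 1 (0.61, adjusted p = 0.0677) or 3 (0.69, adjusted p = 0.0893), and without the batch term the adjusted p was 0.211 and 0.222. FOSL2 fell to 34.7, 34.03, 25.7 and 27.5 RPM with siVPS4B#2 (log2 -0.62 ± 0.17, adjusted p = 0.0130; 4.56% of all genes were called lower and 5.69% lay apart), below all siCTRL#1 libraries but within the span of NT and siCTRL#1 together. That call was lost without replicate 3 (adjusted p = 0.138) and without replicate 4 (0.0647). JUND stood at 229, 158, 159 and 136 RPM with siVPS4B#2, above every siCTRL#1 library (5.5% of all genes), and at 1.42-fold (adjusted p = 0.0108) it lay under the fold threshold, which it passed without replicate 3 or 4.

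A further pair of differences under single silencing missed the threshold and passed it with 1 replicate left out. EGR1 with siVPS4B#1 held 186, 179, 39.6 and 348 RPM (log2 0.98 ± 0.41, adjusted p = 0.0779, and 0.0421 without replicate 2). FOSL1 with siVPS4B#2 held 35.8, 28.5, 44.03 and 58.3 RPM (log2 -0.62 ± 0.23, adjusted p = 0.0640, and 0.00927 without replicate 4).

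The second non-targeting duplex was compared with siCTRL#1, and duplex and dose cannot be told apart in this comparison. VPS4B itself was 1.53-fold higher with siCTRL#2 (adjusted p = 0.0158). Among the 10 genes siCTRL#2 gave 1 call, DUSP1 (5.84% of all genes were called higher). DUSP1 held 48.9, 43.9, 34.04 and 46.9 RPM with siCTRL#2, above every siCTRL#1 library as were 9.69% of all genes (1.72-fold, 95% interval 0.36 to 1.19 on the log2 scale, adjusted p = 0.00328). The intervals for DUSP1 were 0.22 to 1.04 with siVPS4B#1, 0.25 to 1.08 with siVPS4B#2, 1.92 to 2.75 with the first pair and 1.89 to 2.72 with the second. Without the batch term it had an adjusted p of 0.0786.

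Whether a pair did more than its duplexes alone was tested as the pair's effect minus both single effects of the same duplexes. This interaction was positive and called for 7 of the 10 genes with either pair, JUNB, JUND, FOSL1, FOSL2, ATF3, DUSP1 and IER3 (3.82% and 9.64% of all genes were called positive). ATF3 had the largest interaction, 2.97 ± 0.35 (adjusted p = 1.29e-07) and 3.38 ± 0.35 (adjusted p = 2.18e-09) on the log2 scale, and its single effects summed to -1.33 and -1.07. JUNB, whose single effects summed to -0.13 and -0.17, had 1.38 ± 0.27 (adjusted p = 0.000578) and 1.75 ± 0.26 (adjusted p = 4.45e-06). For FOSL1 the interaction was 1.38 ± 0.33 and 1.59 ± 0.33 (adjusted p = 0.00623 and 0.000458), and for FOSL2 1.20 ± 0.25 and 1.73 ± 0.25 (adjusted p = 0.00151 and 1.71e-06). VPS4A itself was less reduced with siVPS4A+B#1 (19.96 RPM) than with siVPS4A#2 alone (7.88 RPM). Its interaction was called with that pair (1.04 ± 0.32, adjusted p = 0.0391) and not with the second (0.74 ± 0.31, adjusted p = 0.0926). The part of this in the interactions of the 10 genes was not tested.

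The single effects of JUND, none of which was called, summed to 0.51 and 0.87, and those of DUSP1, of which the 2 with VPS4B duplexes were called, to 0.54 and 1.09. Their interactions were 0.88 ± 0.20 and 0.76 ± 0.20 for JUND (adjusted p = 0.00335 and 0.00435) and 1.79 ± 0.29 and 1.22 ± 0.29 for DUSP1 (adjusted p = 5.31e-05 and 0.00231). IER3 had 0.68 ± 0.19 and 0.66 ± 0.18 (adjusted p = 0.0180 and 0.00904), and with the second pair its difference from siCTRL#1 was -0.13 where the single effects summed to -0.79. The IER3 calls were lost without the batch term (adjusted p = 0.109 and 0.0912) and without replicate 2 (0.148 and 0.0990), the first also without replicate 3 (0.165). Scaled by total reads, both were lost as well, at 0.57 (adjusted p = 0.0582) and at 0.51, which lies under the fold threshold (adjusted p = 0.0411). Also lost was the call for FOSL1 with the first pair without replicate 2 (0.0706). JUND with the first pair was lost without replicate 4 (0.0630). Neither FOS (adjusted p = 0.282 and 0.183) nor EGR1 (0.1299 and 0.557) was called, with values of -0.97 ± 0.50 and -1.49 ± 0.58 for the first pair and 0.94 ± 0.50 and 0.55 ± 0.58 for the second. EGR1 with the first pair was called without replicate 2 (-2.36, adjusted p = 0.0217). With the library labelled siVPS4A#1 replicate 2 kept, 4 of the 10 genes had a called interaction with the second pair, and JUND (adjusted p = 0.194), DUSP1 (0.387) and IER3 (0.306) did not. The share of all genes called in that fit is not given here, so this count is a description only.

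**Figure D3:**
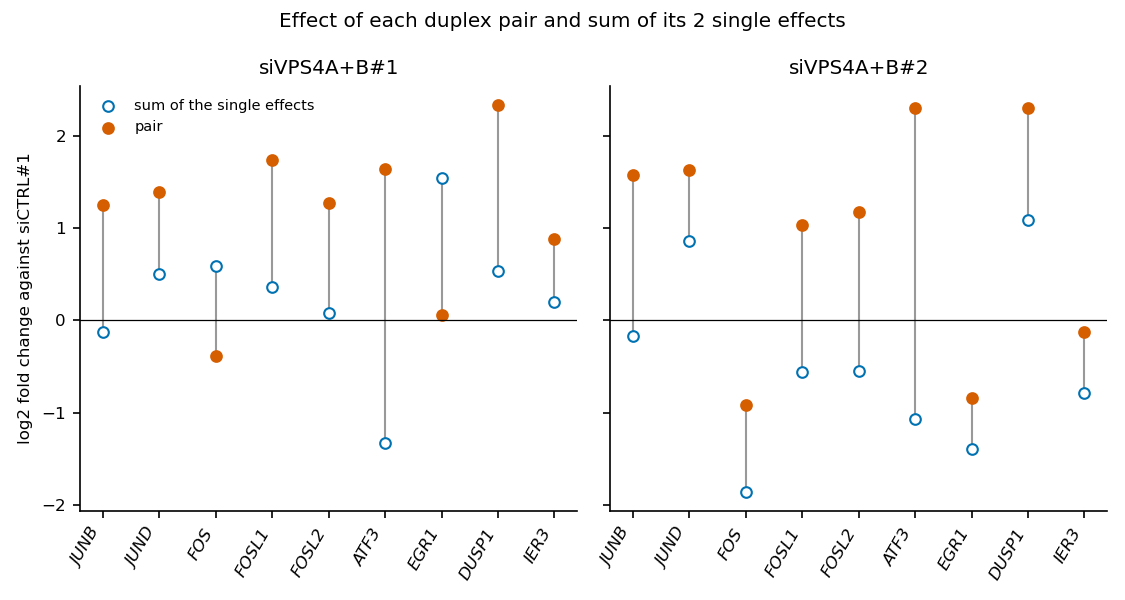
Log2 fold change of each pair against siCTRL#1 (filled) beside the sum of its single effects (open) for 9 genes; the line between them is the interaction. In ATF3 the sum lies at -1.33 and -1.07 and the pair at 1.64 and 2.31.

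Ordered by mean log2 level over the 9 conditions, JUNB, JUND, FOSL2, ATF3 and DUSP1 had the 2 pairs on top, separated without overlap from the condition ranked next, and the pairs overlapped with each other. The share of all genes ordered in this way was not computed, so the order is given as a description. For FOSL1 the second pair overlapped with the condition ranked next. In IER3 siVPS4A+B#1 alone stood apart, and siVPS4A+B#2 ranked 7 of 9. Below the pairs, neighbours in the order overlapped in all genes except FOSL2, in which siVPS4B#2 and NT lay below the rest, and ATF3, in which siVPS4B#1 lay lowest. In FOS and EGR1 every neighbour overlapped, from 25.4 ± 13.3 RPM (SD, n = 4) with siVPS4B#1 to 5.48 ± 4.32 RPM (SD, n = 4) with siVPS4A#1 for FOS, and from 186 ± 92.9 RPM (SD, n = 4) in NT to 45.5 ± 27.0 RPM (SD, n = 4) with siVPS4A#1 for EGR1.

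The spread between libraries was uneven among the genes and followed the replicate number in some. EGR1 and FOS had SDs within conditions of 1.25 and 0.90 on the log2 scale, against 0.21 to 0.48 for the other genes above the floor. After the batch term these fell to 0.74 and 0.62. Libraries of replicate 3 lay below their condition's mean in 9 of 9 conditions for EGR1, DUSP1 and IER3, in 8 of 9 for FOS and in 7 of 9 for JUNB. The mean deviation of these libraries was -1.59 for EGR1, -0.96 for FOS, -0.54 for DUSP1, -0.46 for JUNB and -0.37 for IER3. ATF3, FOSL2 and JUND deviated by -0.01, -0.11 and -0.08. In replicate 3 with siVPS4A+B#2, JUNB (422 RPM) and ATF3 (220 RPM) were nonetheless the highest of their group. The batch letter is what the labels give for this number, and what differed between the batches was not tested.

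**Figure D4:**
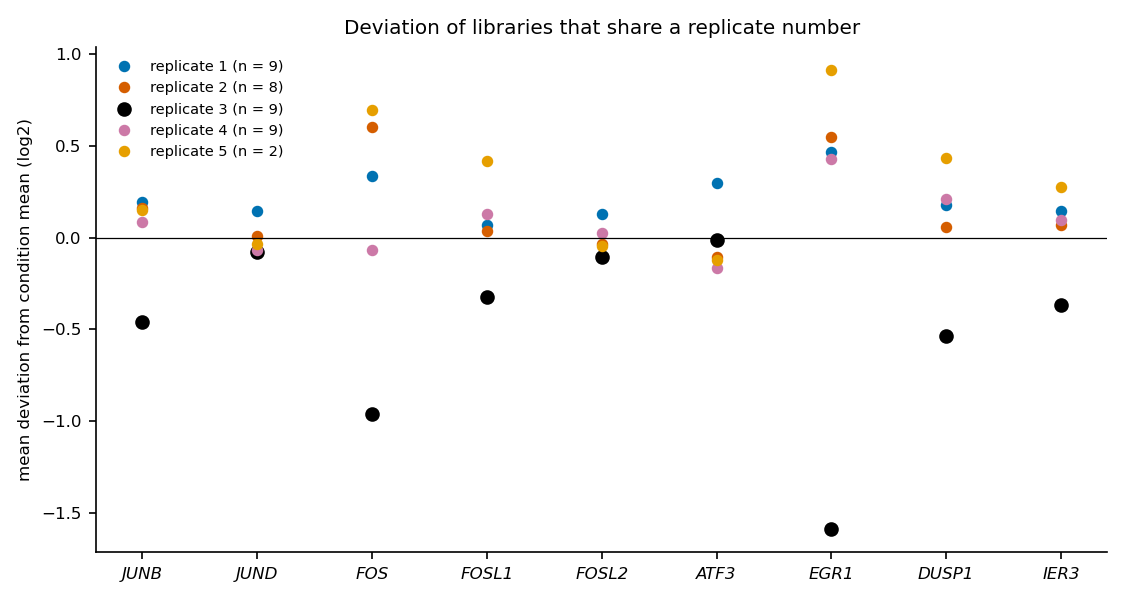
Mean deviation of libraries from their condition's mean (log2) by replicate number, for 9 genes, with the number of libraries in the key. Replicate 3 (black) lies lowest for all of these genes except ATF3, at -1.59 for EGR1 and at -0.08 and -0.11 for JUND and FOSL2, close to other replicates.

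Among the 9043 genes with a mean of at least 10 RPM in some condition, those whose condition means followed a member most closely were found by Pearson's r over 9 condition means, given as a description. The 9 conditions share duplexes and batches. The closest were NFKBIA for JUNB (r = 0.98), C3orf52 for JUND (0.98), LSM10 for FOSL1 (0.98), CLTB for FOSL2 (0.98), JOSD1 for ATF3 (0.97), SQSTM1 for DUSP1 (0.98), EEFSEC for FOS (0.96), CST6 for EGR1 (0.97) and P4HA1 for IER3 (0.96). GCLM (r = 0.98) came second for JUND and MAFK (0.96) second for ATF3. Within the gene set, r was 0.85 between FOS and EGR1, 0.90 between JUNB and JUND and 0.92 between FOSL1 and FOSL2, whereas FOS with JUNB gave -0.29.

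Other partners of AP-1 were measured for 8 of 10 listed genes. Of these, 2 were called higher with each pair (10.6% and 12.8% of all genes), and 1 of the 8, the small Maf protein MAFK, with both (6.19% of all genes), at 1.66-fold (adjusted p = 0.000226) and 1.63-fold (adjusted p = 0.000250). FOSB, the fourth Fos subunit, held 3.22 to 8.54 RPM with siCTRL#1 and was called with neither pair (log2 0.31 ± 0.21 and 0.35 ± 0.21), and it was lower with siVPS4B#2 (log2 -0.84 ± 0.21, adjusted p = 0.00504). JDP2, which dimerizes with JUN and represses, was lower with siVPS4A#1 (log2 -1.29 ± 0.19, adjusted p = 3.56e-07), siVPS4B#1 (-1.27 ± 0.19, adjusted p = 2.70e-06) and siVPS4B#2 (-0.77 ± 0.19, adjusted p = 0.00490), and was called with neither pair. Of 22 genes of the MAP kinase routes to AP-1, 3 were called higher and 1 lower with siVPS4A+B#1 (10.6% and 11.5% of all genes), and 1 higher with siVPS4A+B#2 (12.8% of all genes). These counts lay near or below the shares over all genes. MAP2K4, a kinase of JNK and p38, was the 1 gene raised in both, 1.61-fold (adjusted p = 0.000116) and 2.33-fold (adjusted p = 1.85e-09). MAP2K4 was also called higher with siCTRL#2 (1.51-fold, adjusted p = 0.000958) and with siVPS4A#1 (1.56-fold, adjusted p = 0.000198), and averaged 38.05 and 38.5 RPM there, 23.9 RPM with siCTRL#1 and 41.7 and 59.4 RPM with the pairs. MAP2K3 was lower with siVPS4B#1 alone (log2 -0.81 ± 0.15, adjusted p = 7.04e-05), and MAPK10, called with siVPS4B#2, rested on 1 to 5 reads in the siCTRL#1 libraries.

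The 23 other immediate-early and early response genes included 12 called higher and 1 lower with siVPS4A+B#1 (10.6% and 11.5% of all genes) and 11 called higher with siVPS4A+B#2 (12.8%), 9 of them in both (6.19%). The orphan nuclear receptors NR4A1, NR4A2 and NR4A3 rose 11.9-, 5.18- and 4.18-fold with the first pair (adjusted p = 6.03e-20, 2.54e-14 and 5.10e-10) and 2.86-, 2.26- and 2.52-fold with the second (adjusted p = 1.43e-09, 3.98e-07 and 2.41e-06). KLF6, a zinc finger factor, rose 4.20- and 3.62-fold (adjusted p = 1.29e-14 and 2.12e-13), and ZFP36, which marks AU-rich messenger RNAs for decay, 2.93- and 2.41-fold (adjusted p = 2.92e-08 and 9.68e-07). NR4A1 was lower with siVPS4A#1 alone (log2 -1.53 ± 0.17, adjusted p = 9.38e-10), as FOS was. It held 3.79 to 5.65 RPM there, 12.3 to 19.4 RPM with siCTRL#1 and only 6.17 to 7.20 RPM in NT. KLF2 was higher with siVPS4A#1 (log2 1.03 ± 0.22, adjusted p = 0.000183) and SIK1 lower with siVPS4B#1 (log2 -0.63 ± 0.16, adjusted p = 0.00308), and neither was called with a pair. The list's median was 0.64 with each pair.

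MAP kinase phosphatases beside DUSP1 moved in both directions. Of 9, 6 were called higher and 1 lower with siVPS4A+B#1 (10.6% and 11.5% of all genes) and 5 higher and 2 lower with siVPS4A+B#2 (12.8% and 15.9%). DUSP8 rose 4.05- and 3.44-fold (adjusted p = 6.83e-12 and 9.70e-11), DUSP5 3.25- and 3.87-fold (adjusted p = 8.36e-10 and 1.62e-11), DUSP10 3.62- and 2.33-fold (adjusted p = 1.32e-10 and 7.38e-07) and DUSP16 2.36- and 2.98-fold (adjusted p = 5.46e-09 and 9.30e-12), where siCTRL#2 gave 1.52-fold for DUSP16 (adjusted p = 0.00111). DUSP6, a cytoplasmic ERK phosphatase and itself a transcript that ERK activity maintains, fell by 1.70 ± 0.23 and 1.80 ± 0.23 on the log2 scale (adjusted p = 2.24e-07 and 4.04e-08). It went from 255 to 534 RPM with siCTRL#1 to 56.7 to 266 RPM and 67.7 to 162 RPM. DUSP6 was also called lower with siCTRL#2 (log2 -0.83 ± 0.23, adjusted p = 0.00630) and siVPS4B#2 (log2 -0.78 ± 0.23, adjusted p = 0.0207), averaging 229 and 238 RPM.

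Of 17 measured textbook targets of AP-1, 11 were called higher with siVPS4A+B#1 (10.6% of all genes), and 10 higher and 1 lower with siVPS4A+B#2 (12.8% and 15.9%), with 9 higher in both (6.19%) and a median of 0.83 and 0.70. CXCL8, the chemokine interleukin-8, rose from 2.89 to 3.56 RPM with siCTRL#1 to 126 to 340 RPM and 56.9 to 100 RPM, 52.5- and 19.9-fold (adjusted p = 1.59e-21 and 5.66e-18). HMOX1, heme oxygenase 1, rose 6.62- and 82.5-fold (adjusted p = 3.91e-17 and 6.66e-30) and PLAU, the urokinase, 6.30- and 2.66-fold (adjusted p = 1.37e-16 and 2.47e-09). HMOX1 held 40.3 to 56.4 RPM with siCTRL#1 and 54.95 to 75.3 RPM with siCTRL#2. With single silencing it held 66.6 to 101.7 RPM (siVPS4A#1), 31.8 to 57.2 RPM (siVPS4A#2), 60.0 to 75.8 RPM (siVPS4B#1) and 61.0 to 90.5 RPM (siVPS4B#2). PLAU was also 3.83-fold higher with siCTRL#2 than with siCTRL#1 (adjusted p = 2.20e-12), at 128 to 186 RPM, above the 92.4 to 121 RPM with siVPS4A+B#2 and below the 188 to 304 RPM with siVPS4A+B#1. VEGFA was lower with siVPS4A#1 (log2 -1.03 ± 0.15, adjusted p = 5.63e-07) and MMP7 with siVPS4B#1 (log2 -0.97 ± 0.33, adjusted p = 0.0300), and neither was called with a pair. Many of these genes also answer to NF-κB or other factors, and no binding of AP-1 was measured.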

How the data were processed

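RNA of HCT116 cells was measured with the Ion AmpliSeq transcriptome panel. Reads were aligned by the authors to hg19 with the Torrent aligner (TMAP), and HTSeq 0.6.0 gave counts per gene. What was deposited is a signal: each gene's fraction of the reads in a library, so that a library sums to 1. How the authors made shares from counts and kept 12627 genes is not given in the sources used here. Reads were recovered from the share that 1 read is worth. All low values were within 0.1 of a whole read. Of all values, 49.5% were printed finely enough to be checked. At least 99.95% of these in each library met a wider limit than 0.1.

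Reads were scaled to reads per 1000000 (RPM) with edgeR's TMM factors, and log2 of this plus 1 was fitted with limma (trend) over all genes, in 37 libraries, with condition and the replicate number as a block and Benjamini-Hochberg adjustment. The number stands for the batch that the labels give. Deviations of same-numbered libraries from their condition means correlated at a mean r of 0.16 (137 pairs) against -0.07 (529 pairs) otherwise. By number, the mean r was 0.25 for replicate 1, 0.06 for replicate 2, 0.28 for replicate 3 and 0.01 for replicate 4. Deviations cancel within a condition, and pairs from the same condition all have different numbers. The negative mean is therefore partly built in. DESeq2 and edgeR quasi-likelihood tests on the recovered reads were alternatives. They called 3026 and 3083 genes for siVPS4A+B#1 against siCTRL#1, where limma called 2793, and 3895 and 3938 against 3630 for siVPS4A+B#2. Other alternatives were no replicate block, other scalings, a pseudocount of 0.1, a filter at a mean of 1 RPM, no fold threshold, the left-out library kept, and each replicate left out. The tests were run on simulated reads for siVPS4A+B#1 against siCTRL#1 only, without a batch effect, and the outcome is not reported here.

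The 10 genes and all gene lists were chosen with earlier results of these data known. Named were all members and, from each other list, up to 5 genes called the same way in both pairs, by mean absolute change, and up to 2 called in single silencing and in neither pair, and the closest genes by pattern. Some genes that this rule names are not reported here. Symbols matched 12471 identifiers. Software was R 4.3.3, limma 3.58.1, edgeR 4.0.16, DESeq2 1.42.0 and Python 3.11.15. The authors' own analysis used DESeq2 1.18.1.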

Additional observations from a re-analysis of the deposited data

Results flagged for a closer look

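In 4 of 90 sets of libraries tested (a gene in a condition), 1 library stood apart from the others, where chance gives about 1 in 20. FOSL2 was 156 RPM in siVPS4A+B#1 replicate 1, against 102 to 107 RPM in the other 3 libraries. EGR1 was 29.0 RPM in siCTRL#2 replicate 3, against 132 to 174 RPM. IER3 was 1150 RPM in siVPS4B#1 replicate 3, against 1580 to 1660 RPM. These EGR1 and IER3 libraries share replicate 3, which lay below the condition's mean in 9 of 9 conditions for both genes (mean deviation -1.59 and -0.37 on the log2 scale). JUN was 0.842 RPM in siCTRL#1 replicate 1, which is 5 reads, against 0 to 0.189 RPM.

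The effect of a pair differed from the sum of its single effects, by the interaction in limma, for 7 genes in each pair. On the log2 scale this was 1.38 and 1.75 for JUNB, 0.88 and 0.76 for JUND, 1.38 and 1.59 for FOSL1, 1.20 and 1.73 for FOSL2, 2.97 and 3.38 for ATF3, 1.79 and 1.22 for DUSP1 and 0.68 and 0.66 for IER3, the first value of each belonging to siVPS4A+B#1.

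The library labelled siVPS4A#1 replicate 2, used in no comparison of the report except where it says the library was kept, held 7 of the 10 genes, JUN at 1 read not counted, above every siCTRL#1 and NT library. This library had only 669257 reads. The share of all genes above those controls in it was not computed, so the count is not a result particular to these genes. JUNB was 374 RPM there, against at most 172 RPM in those controls, JUND 356 against 158, FOSL1 165 against 88.8, FOSL2 102 against 55.03, ATF3 92.2 against 66.3, DUSP1 240 against 60.9 and IER3 1960 against 1550. It held 7 reads of VPS4A (11.3 RPM) and 1 of VPS4B. FOS and EGR1, at 11.3 and 50.2 RPM, were within or below the control range.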

How the results depend on the processing

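Of 741 recomputed values of called genes over 13 alternatives, 674 kept direction and call, 67 kept direction and lost the call, and 0 turned. The calls of JUNB, JUND, FOSL1, FOSL2, ATF3 and DUSP1 in both pairs against siCTRL#1, and of IER3 in siVPS4A+B#1, held in all of them. Counts of called genes among the 10 moved by over 1.5 times as follows. For siVPS4A#1 against siCTRL#1, 2 instead of 4 were called in DESeq2, without the replicate block, with DESeq2 size factors and with total reads without TMM factors, and 2 to 4 without 1 replicate each. For siVPS4B#1 and for siVPS4B#2 against siCTRL#1, 1 instead of 2 was called without the replicate block and with the left-out library kept, and 1 to 3 without 1 replicate. For siCTRL#1 against NT, 2 instead of 1 were called with the filter on low means, and 1 to 2 without 1 replicate. For siCTRL#2 against siCTRL#1, 0 were called without the replicate block or with the library kept, and 2 without a fold threshold. Between the pairs, 1 instead of 3 was called without the replicate block or with the library kept, and 1 to 4 without 1 replicate. The interaction with siVPS4A+B#2 was called for 4 instead of 7 genes with the library kept (share of all genes not given here), a library that goes against its label. Other causes were not tested. Without the replicate block 12 of 57 calls were lost. With scaling by total reads the median of all genes was -0.16 and -0.13 in the pairs against siCTRL#1, where it was -0.02 and -0.02 in the main fit. Between the pairs EGR1 was called lower with siVPS4A+B#2 in edgeR (adjusted p = 0.0347) and without replicate 4 (0.00359). JUN took 0 to 7 reads per library, so counting error is large for it.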
